A study of Mus musculus with 2 samples.

Results

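The ABC transporter genes of mouse prostate cells sorted as luminal were taken from the deposited gene table. They were every row whose symbol begins with Abc, a subfamily letter from a to g and a digit. This rule found 41 genes among the 18724 rows. The tissue was prostate from mice of 18 weeks. Luminal epithelial cells were sorted by flow cytometry into GFP-positive cells, which had kept a histone 2B-GFP label (label-retaining), and GFP-negative cells (non-retaining). Each population gave 1 total RNA library, of 50689229 gene reads (label-retaining) and 48334265 gene reads (non-retaining). The sources used here do not give the strain, the promoter that drives the histone fusion, the length of the chase or the number of mice pooled.

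With 1 library per group there was no test between groups and no replicate check. Every value below compares these libraries, and every interval is an exact 95% counting interval that covers counting error only. A gene was measured when its mean over the libraries was at least 10 normalised counts. A call of higher or lower needed a log2 ratio (label-retaining over non-retaining) of 1 or more in size, with an interval that did not hold equality.

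ABC proteins use ATP, bound by paired nucleotide-binding domains, to move lipids, bile salts, drugs, conjugated metabolites or peptides across membranes. A few members work instead as channel regulators or on ribosomes. In epithelia the surface pumps are known for drug and dye efflux, which has been used to enrich stem-like cells, and the A and G subfamilies for sterol and phospholipid export.

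Of the 41 members, 40 were measured and 1, the sterol exporter gene Abcg8, was not. The label-retaining library had 10 measured members higher (25%) and 7 lower (17.5%), and 23 were not called. Over all 17183 measured genes, 14.5% were called higher and 19.4% lower. The members' share of higher calls was thus above that background and their share of lower calls close to it. Some called members passed the filter through 1 library only, namely Abcc2, Abcd2 and Abcb6 (higher) and Abcc8 (lower). At a mean of at least 50 normalised counts, 7 of 32 members were higher (21.9%) and 6 lower (18.8%). The shares of all genes at that filter were 13.5% and 17.5%. The median log2 ratio of the members was 0.28, against -0.0052 for all measured genes. The 275 measured solute carrier genes, the other large transporter superfamily, gave shares like those of the ABC genes, with 73 higher (26.5%) and 55 lower (20%). ABC genes took 0.160% of the reads in label-retaining cells, against 0.132% in non-retaining cells. Another 9 ABC symbols of the annotation, Abcb11, Abcc6 and Abcg3 among them, were not analysed here.

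**Figure D1:**
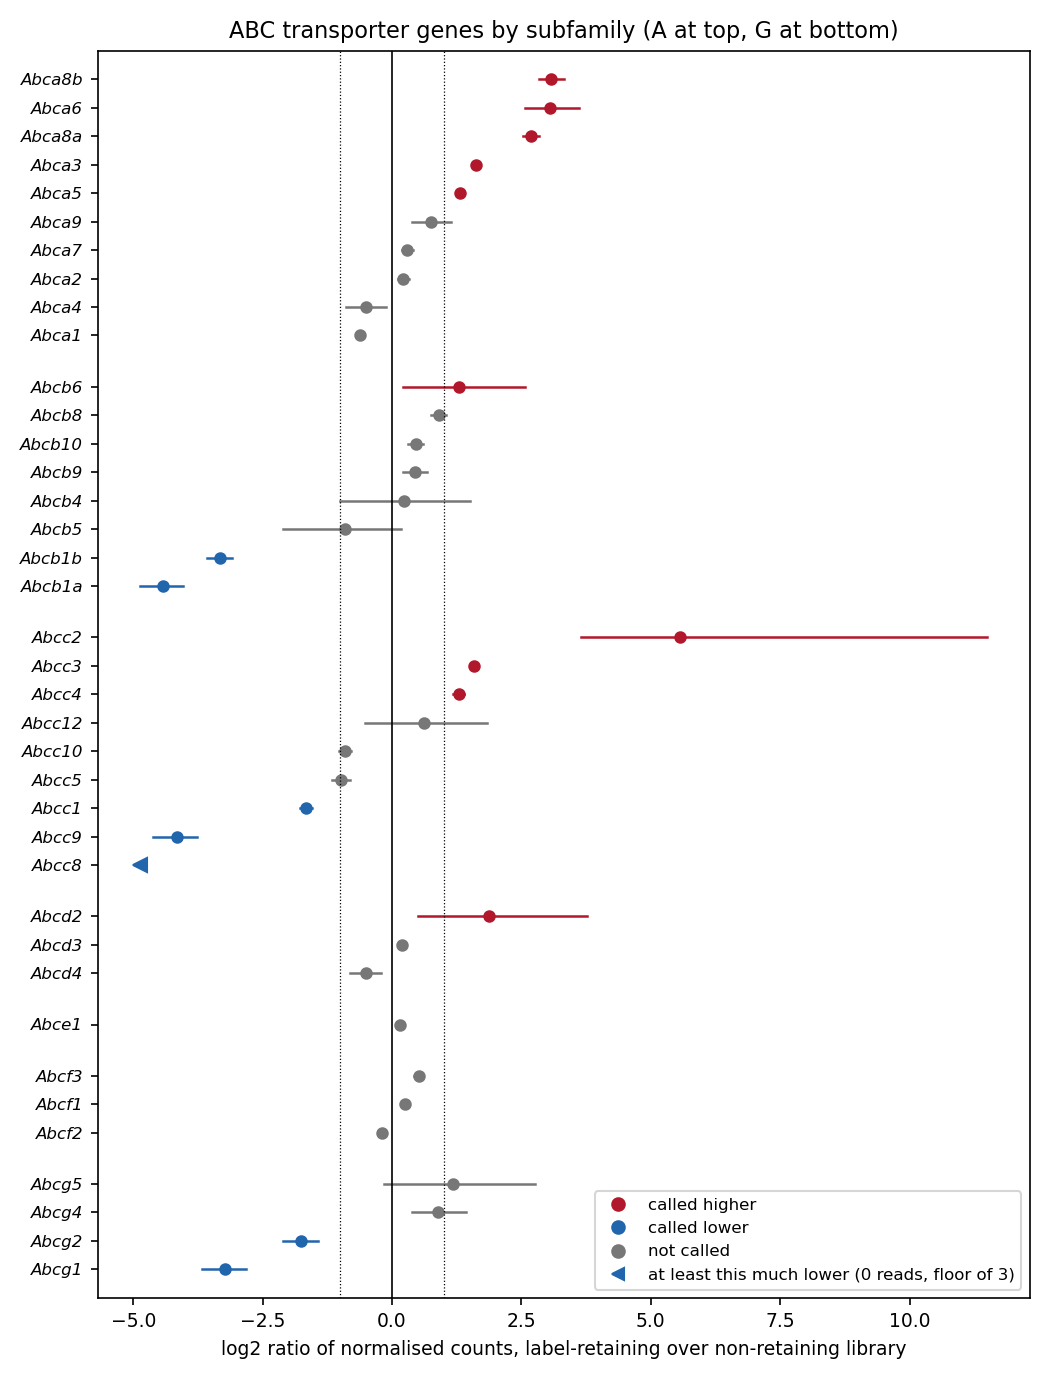
Log2 ratio of normalised counts (label-retaining over non-retaining library, 1 library each) for 38 of the 40 measured ABC genes by subfamily, with points for ratios, lines for 95% counting intervals and dotted lines at -1 and 1. The lipid transporter genes of subfamily A lie mostly to the right, whereas Abcb1a, Abcb1b, Abcc9, Abcg1 and Abcg2 lie to the left, and Abcc8, without a read in the label-retaining library, is drawn at its bound of 29.2-fold lower, set by a floor of 3 reads.

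The luminal label was checked against cell type markers. Of 14 luminal markers, 6 were higher and 0 lower under the deposited scaling, and all 14 had reads in both libraries. When Krt8 and Krt18 set the scaling instead, 5 were higher and 3 lower, where 5.48% and 40.7% of all measured genes were. The luminal markers summed to 931180 normalised counts in label-retaining cells, against 483411 in non-retaining cells. Both libraries also held RNA of other cell types. Basal markers summed to 37442 normalised counts in label-retaining cells, but to 356975 in non-retaining cells. By level per kilobase among all measured genes, the basal keratin genes ran from percentile 99.1 (Krt5) to 99.8 (Krt17) in non-retaining cells. The markers thus do not show the non-retaining library to be of luminal cells alone. In the label-retaining library 11 of 12 basal markers, 7 of 7 smooth muscle and pericyte markers, 5 of 8 endothelial markers and 8 of 14 leukocyte markers were lower. Of the leukocyte markers 2 were higher, and of the basal, smooth muscle and endothelial markers 0. Fibroblast markers split, with 2 higher and 2 lower of 6, and the 4 measured red cell markers were lower. The 7 seminal vesicle markers were all higher and summed to 84299 normalised counts in label-retaining cells, against 768 in non-retaining cells. In bulk RNA, fewer cells of a type and less RNA per cell cannot be told apart.

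Subfamily A, whose members transport lipids, held 5 of the 10 higher genes and 0 of the 7 lower ones among its 10 measured members, with a median log2 ratio of 1.03. Without the cholesterol exporter genes Abca1 and Abca7, the other 8 had 5 higher and 0 lower under the deposited scaling. With the libraries scaled on the luminal keratin genes, these 8 had 3 higher and 1 lower. Of all measured genes, 5.48% were higher and 40.7% lower under that scaling. Under that keratin scaling Abca1 was also lower, at a log2 ratio of -1.39, and Abca7 was not called. The largest ratios of the subfamily came from a run of neighbouring genes on chromosome 11, in the order Abca8b, Abca8a, Abca9, Abca6 and Abca5. Abca8b has been linked to cholesterol efflux in mice (ENSMUSG00000020620.13, mm10, chromosome 11, 109932190 to 109995845, minus strand). It had 1297 normalised counts in label-retaining cells, against 154 in non-retaining cells, an 8.44-fold difference (log2 ratio 3.07, interval 2.84 to 3.32). Its neighbour and paralogue Abca8a (ENSMUSG00000041828.14, 110025634 to 110095978) had 2434 normalised counts in label-retaining and 378 in non-retaining cells (2.68, 2.53 to 2.84). Both genes were low in the non-retaining library and well above that in the label-retaining one.

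Abca6, of the same group of lipid transporter genes, had 274 normalised counts in label-retaining cells, against 32.7 in non-retaining cells (3.05, 2.56 to 3.61). Abca5, which encodes a transporter of late endosomes and lysosomes, had the highest level of the run per kilobase of exon, and had 13691 normalised counts in label-retaining and 5534 in non-retaining cells (1.31, 1.26 to 1.35). Abca9 had 153 normalised counts in label-retaining cells, against 90.1 in non-retaining cells, a ratio of 0.76 (0.39 to 1.14) that was not called. All 5 genes of the run were thus on the higher side under the deposited scaling, 4 of them called. With the libraries scaled on Krt8 and Krt18, luminal keratin genes, Abca8a, Abca8b and Abca6 kept their call, Abca5 lost it at 0.52 and Abca9 lay at -0.02. Of the 3 other measured genes within 300 kb of the run, 0 were called. They were Prkar1a (-0.89), Fam20a (0.20) and Map2k6 (-0.06), on the log2 scale.

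In humans the relatives of Abca6, Abca8a and Abca9 are also known from fibroblasts. The 6 fibroblast markers summed to 15804 normalised counts in label-retaining cells, against 91098 in non-retaining cells, most of it Dcn in the non-retaining library. Dcn (-4.09) and Pdgfra (-4.68) were lower, whereas Lum (1.53) and Col1a1 (1.06) were higher and the collagen genes Col3a1 (0.97) and Col1a2 (0.94) were not called. None of the 6 was at 0 in either library. The part of fibroblasts, or of the seminal vesicle RNA above, in the differences of this run was not tested.

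**Figure D2:**
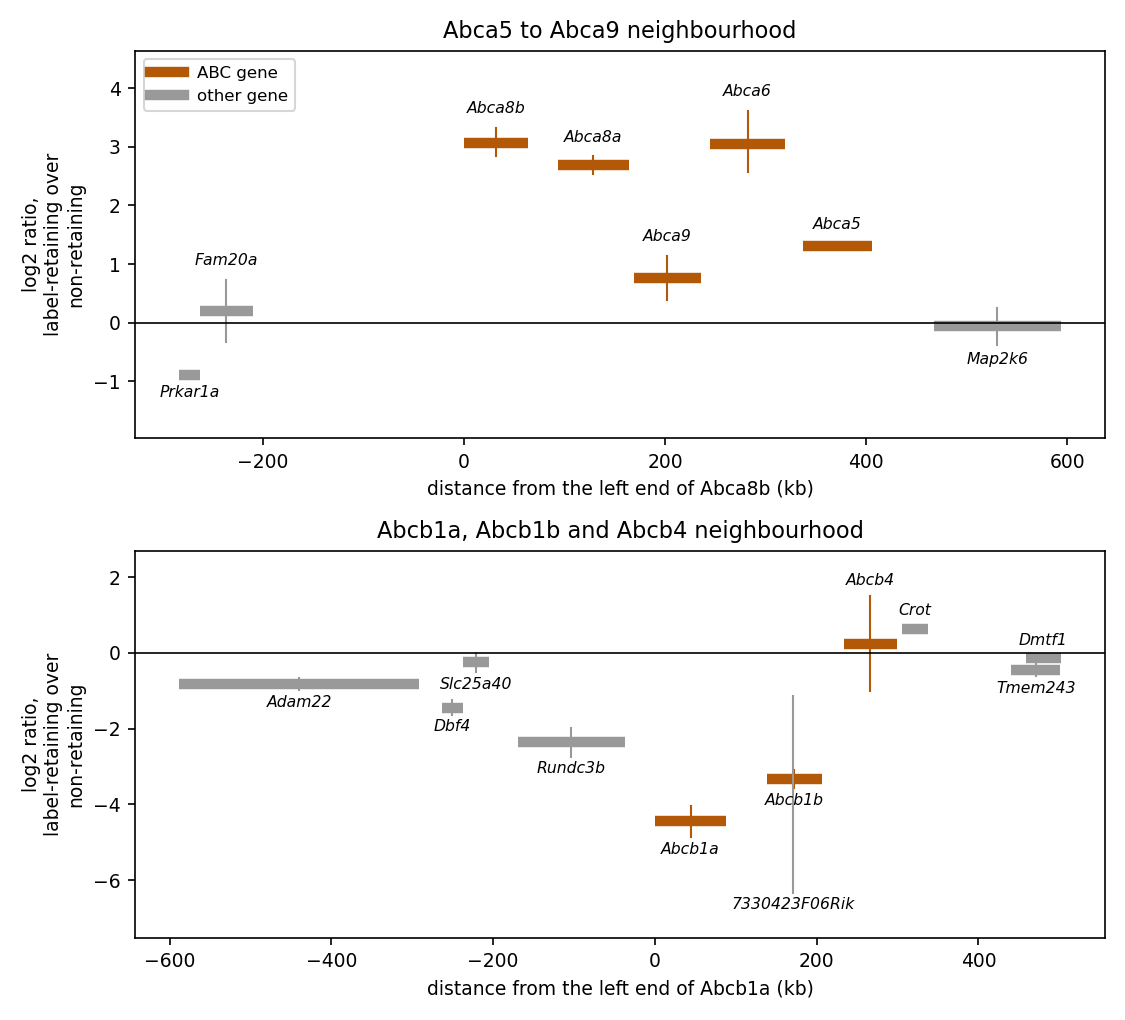
Log2 ratio (label-retaining over non-retaining library) of measured genes around the Abca5 to Abca9 run (top) and around Abcb1a, Abcb1b and Abcb4 (bottom), against distance in kb from the left end of the first ABC gene, with bars as long as the genes and vertical lines for 95% counting intervals; a gene without a label-retaining read is not drawn. In the top panel all 5 ABC genes lie above 0 and the 3 other genes lie between -0.89 and 0.20, whereas in the bottom panel Abcb1a and Abcb1b lie lowest among the named genes and Abcb4 lies near 0.

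The promoters of this run are shown because the called genes among these neighbours differed in CpG content upstream of the start. A RefSeq window within 500 bases of the annotated start was found for 4 of the 5. Each line gives the 250 bases before the start site in the gene's direction, from RefSeq on GRCm38, with CpG dinucleotides in capitals. The windows are chr11:109995846-109996095, chr11:110095938-110096187, chr11:110168154-110168403 and chr11:110337717-110337966, all on the minus strand.
Abca8b: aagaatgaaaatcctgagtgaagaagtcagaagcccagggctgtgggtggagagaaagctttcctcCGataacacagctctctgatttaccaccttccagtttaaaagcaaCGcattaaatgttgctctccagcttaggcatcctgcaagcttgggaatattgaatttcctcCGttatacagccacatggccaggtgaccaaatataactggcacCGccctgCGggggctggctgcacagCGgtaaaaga
Abca8a: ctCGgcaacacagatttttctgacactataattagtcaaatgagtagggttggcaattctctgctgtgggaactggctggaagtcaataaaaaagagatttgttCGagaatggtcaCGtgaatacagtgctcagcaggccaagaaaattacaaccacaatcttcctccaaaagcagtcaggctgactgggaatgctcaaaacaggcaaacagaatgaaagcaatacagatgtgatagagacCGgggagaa
Abca9: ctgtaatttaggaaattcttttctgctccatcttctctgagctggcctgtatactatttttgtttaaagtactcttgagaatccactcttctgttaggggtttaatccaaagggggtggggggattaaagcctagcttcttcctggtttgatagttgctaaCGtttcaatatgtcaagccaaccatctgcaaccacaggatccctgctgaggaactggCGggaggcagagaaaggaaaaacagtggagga
Abca5: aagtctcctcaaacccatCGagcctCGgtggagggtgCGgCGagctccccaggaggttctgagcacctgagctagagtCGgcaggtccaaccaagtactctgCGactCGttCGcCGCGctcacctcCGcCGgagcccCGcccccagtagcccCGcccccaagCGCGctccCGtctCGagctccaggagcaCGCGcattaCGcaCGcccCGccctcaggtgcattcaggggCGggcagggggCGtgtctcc
The Abca8b window held 6 CpG, that of Abca8a 4 and that of Abca9 2, whereas that of Abca5 held 25. The median over 32536 distinct promoter windows of mouse genes was 6. The Abca5 window is the CpG-rich kind and belongs to the gene with the highest level of the run in both libraries.

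Outside the run, Abca3, which loads phospholipid into lamellar bodies in the lung, had 7832 normalised counts in label-retaining and 2543 in non-retaining cells (1.62, 1.56 to 1.69). Per kilobase it ranked 6 among ABC genes in label-retaining cells and 9 in non-retaining cells. In M21 gene models, 9.75% of its exon bases overlap a gene on the other strand. Abca2, of lysosomal lipid handling in the brain, had a ratio of 0.22, and Abca7, which moves phospholipid and acts in phagocytosis, one of 0.30. Abca4, the retinal flippase gene, was low, with 94.8 normalised counts in label-retaining cells, against 135 in non-retaining cells (-0.50, -0.89 to -0.12). None of these 3 was called.

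Of 6 measured exporters of sterols and phospholipids to lipoproteins or bile, 0 were higher and 1 was lower under the deposited scaling. Under the keratin scaling 0 were higher and 2 were lower, namely Abca1 (-1.39) and Abcg1 (-4.00). The shares of all measured genes under that scaling were 5.48% higher and 40.7% lower. Abca1, which hands cholesterol and phospholipid to apolipoprotein A-I, had 2894 normalised counts in label-retaining cells, against 4421 in non-retaining cells (-0.61, -0.68 to -0.54). Under the deposited scaling this was below the size needed for a call. Abcg1, which passes sterol on to high-density lipoprotein, had 53.9 normalised counts in label-retaining and 507 in non-retaining cells, 9.40-fold lower (-3.22, -3.66 to -2.83). Abcg4, its close relative in the brain, had 86.8 normalised counts in label-retaining cells, against 46.4 in non-retaining cells (0.90, 0.39 to 1.43) and was not called. Abcg5 and Abcg8 form an obligate pair that excretes sterols in liver and gut. Abcg5 had 15 reads in label-retaining cells, against 7 in non-retaining cells, and no difference was detectable at this depth. Abcg8 had 3 reads in label-retaining cells, against 0 in non-retaining cells. Abcb4, the phosphatidylcholine flippase of bile, had 13 reads in label-retaining cells, against 12 in non-retaining cells.

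Genes that supply or receive lipid in this pathway were more often lower than higher. Of 16 lipid efflux partners, 8 were lower (50%) and 1 higher (6.25%), with a median log2 ratio of -1.04. Over all measured genes the shares were 19.4% lower and 14.5% higher. Apoe, the apolipoprotein that accepts cellular cholesterol, had 11742 normalised counts in label-retaining cells, against 105094 in non-retaining cells (-3.16). Pltp, the phospholipid transfer protein gene, had 371 normalised counts in label-retaining and 7332 in non-retaining cells (-4.30). The 1 higher gene, Nceh1, encodes a cholesteryl ester hydrolase (1.42). Of the leukocyte markers, Ptprc was at -4.82. Among the myeloid markers of that list Adgre1 (1.08) and Lyz2 (1.03) were higher, and Itgam (0.74), Csf1r (0.54) and Cd68 (-0.35) were not called. Under the keratin scaling 0 of the 14 leukocyte markers were higher and 10 were lower, where 5.48% and 40.7% of all measured genes were. The part of these cells in the Abcg1 and Apoe differences was not tested.

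The P-glycoprotein genes Abcb1a and Abcb1b and the dye pump gene Abcg2 were lower in the label-retaining library. Other pumps that can carry drugs, of subfamily C, were called in both directions and are given further on. Abcb1a and Abcb1b together encode mouse P-glycoprotein, the efflux pump that a single gene encodes in humans. Abcb1a (ENSMUSG00000040584.8, mm10, chromosome 5, 8660077 to 8748575) had 52.9 normalised counts in label-retaining cells, against 1148 in non-retaining cells, 21.7-fold lower (-4.43, -4.86 to -4.04). Abcb1b (ENSMUSG00000028970.8, 8798147 to 8866315) had 154 normalised counts in label-retaining and 1543 in non-retaining cells, 10.04-fold lower (-3.32, -3.58 to -3.09). By level per kilobase among all measured genes, Abcb1a stood at percentile 15.6 in label-retaining cells, against 61.8 in non-retaining cells. Abcb1b stood at percentile 24.9 in label-retaining cells, against 60.4 in non-retaining cells. Both pump genes were thus among the lower expressed genes in the one library and above the middle in the other.

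Abcg2, the breast cancer resistance protein, effluxes the Hoechst dye that defines side population cells. It had 94.8 normalised counts in label-retaining cells, against 320.2 in non-retaining cells, 3.38-fold lower (-1.75, -2.10 to -1.43). Abcb1a and Abcb1b share sequence. Of the stretches of 50 bases in their M21 transcripts, 16.3% of those of Abcb1a and 11.1% of those of Abcb1b occur in the other gene, so reads could have been split or dropped between them. Of the exon bases of Abcb1a, 10.1% overlap a gene on the other strand. Abcb4, the next gene on the chromosome, had too few reads to show a difference. Among the 9 other measured genes within 300 kb, 4 were lower and 0 higher, namely Rundc3b at -2.34, Dbf4 at -1.44, and Gm42684 and 7330423F06Rik. Gm42684 lies inside Abcb1a and 7330423F06Rik inside Abcb1b, each on the strand of its host, so their reads may not be separate from those of the pump genes.

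The upstream sequence of Abcb1b is shown as the P-glycoprotein gene whose RefSeq start lies at the annotated one. It is the 250 bases before the RefSeq start on GRCm38, chr5:8797897-8798146, plus strand, with CpG in capitals.
Abcb1b: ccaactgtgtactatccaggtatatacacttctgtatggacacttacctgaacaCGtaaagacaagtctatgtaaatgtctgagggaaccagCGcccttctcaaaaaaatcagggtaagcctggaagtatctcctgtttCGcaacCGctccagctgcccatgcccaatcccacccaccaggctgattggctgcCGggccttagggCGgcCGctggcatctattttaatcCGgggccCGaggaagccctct
It held 9 CpG. The window of Abcg2 held 3.

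P-glycoprotein genes are also expressed in endothelial cells and in lymphocytes. In these libraries the 8 endothelial markers summed to 693 normalised counts in label-retaining cells, against 1492 in non-retaining cells. The leukocyte markers summed to 1480 normalised counts in label-retaining and 15541 in non-retaining cells, and Gzma, a killer cell protease gene, had 0 reads in the label-retaining library. The basal markers summed to 37442 normalised counts in label-retaining cells, against 356975 in non-retaining cells. The part of these cells in the pump genes' differences was not tested.

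The subfamily C pumps for conjugates, organic anions and cyclic nucleotides were called in both directions. Of 7 measured members, 3 were higher, 1 lower and 3 not called, with a median log2 ratio of 0.61. Under the keratin scaling 1 was higher and 3 were lower, with a median of -0.14. The median of all measured genes lay lower there, at -0.79, with 5.48% higher and 40.7% lower. Abcc3 (MRP3; ENSMUSG00000020865.15, mm10, chromosome 11, 94343295 to 94392997), which exports glucuronides and bile salts across the basolateral membrane, had 12495 normalised counts in label-retaining cells, against 4174 in non-retaining cells, 2.99-fold higher (1.58, 1.53 to 1.63). Per kilobase of exon it was the highest of all ABC genes in the label-retaining library, at 2193 normalised counts per kb, against rank 4 and 733 normalised counts per kb in non-retaining cells. Abcc4 (MRP4), which exports cyclic nucleotides and prostaglandins, had 2559.6 normalised counts in label-retaining and 1049.7 in non-retaining cells (1.29, 1.19 to 1.39).

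Abcc2 (MRP2), an apical exporter of conjugates in liver and kidney, had 66 reads in label-retaining cells, against 1 in non-retaining cells. Its ratio was the largest of the family but rests on that 1 read, with a log2 ratio of 5.56 and an interval from 3.65 to 11.5. The 7 seminal vesicle markers were also all higher. The part of seminal vesicle RNA in the differences of Abcc2 and the other higher members was not tested. The upstream window of Abcc2, chr19:43782058-43782307 on the plus strand of GRCm38, is shown as the one with the fewest CpG among the 28 ABC windows near the annotated start.
Abcc2: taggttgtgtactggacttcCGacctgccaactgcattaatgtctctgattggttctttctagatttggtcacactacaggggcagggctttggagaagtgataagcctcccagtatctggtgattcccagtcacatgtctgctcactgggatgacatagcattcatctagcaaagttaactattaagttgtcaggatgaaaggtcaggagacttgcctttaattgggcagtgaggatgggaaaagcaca
It held 1 CpG, against 35 in the window of Abcc4.

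Abcc1 (MRP1), which exports glutathione conjugates and leukotriene C4, went the other way from Abcc3 and Abcc4. It had 737 normalised counts in label-retaining cells, against 2343 in non-retaining cells, 3.18-fold lower (-1.67, -1.79 to -1.55). Abcc5, an exporter of cyclic nucleotides and other organic anions, had 391 normalised counts in label-retaining and 779 in non-retaining cells (-0.99, -1.17 to -0.82), just short of the size for a call. Abcc10 had a ratio of -0.91 (-1.03 to -0.79) and was also not called. Abcc12 had 17 reads in label-retaining cells, against 12 in non-retaining cells. Cftr, the chloride channel of the same subfamily under another symbol, had 15 reads in label-retaining cells, against 59 in non-retaining cells (-1.81, -2.77 to -1.01).

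Genes that make or conjugate glutathione, which Abcc1 and its relatives export, had 2 higher and 3 lower of 13 and a median of -0.03 under the deposited scaling. Under the keratin scaling the median was -0.81, with 0 higher and 5 lower. All measured genes had a median of -0.79 under that scaling, with 5.48% higher and 40.7% lower. Gss, glutathione synthetase, was at 1.54 and Ggt1, which breaks glutathione down outside the cell, at 1.43. The transferase genes Gsto1 (-2.23), Gstp1 (-1.82) and Gstt1 (-1.10) were lower, and Gstm2, the gene with the most counts in the list over both libraries together, was uncalled at 0.66.

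**Figure D3:**
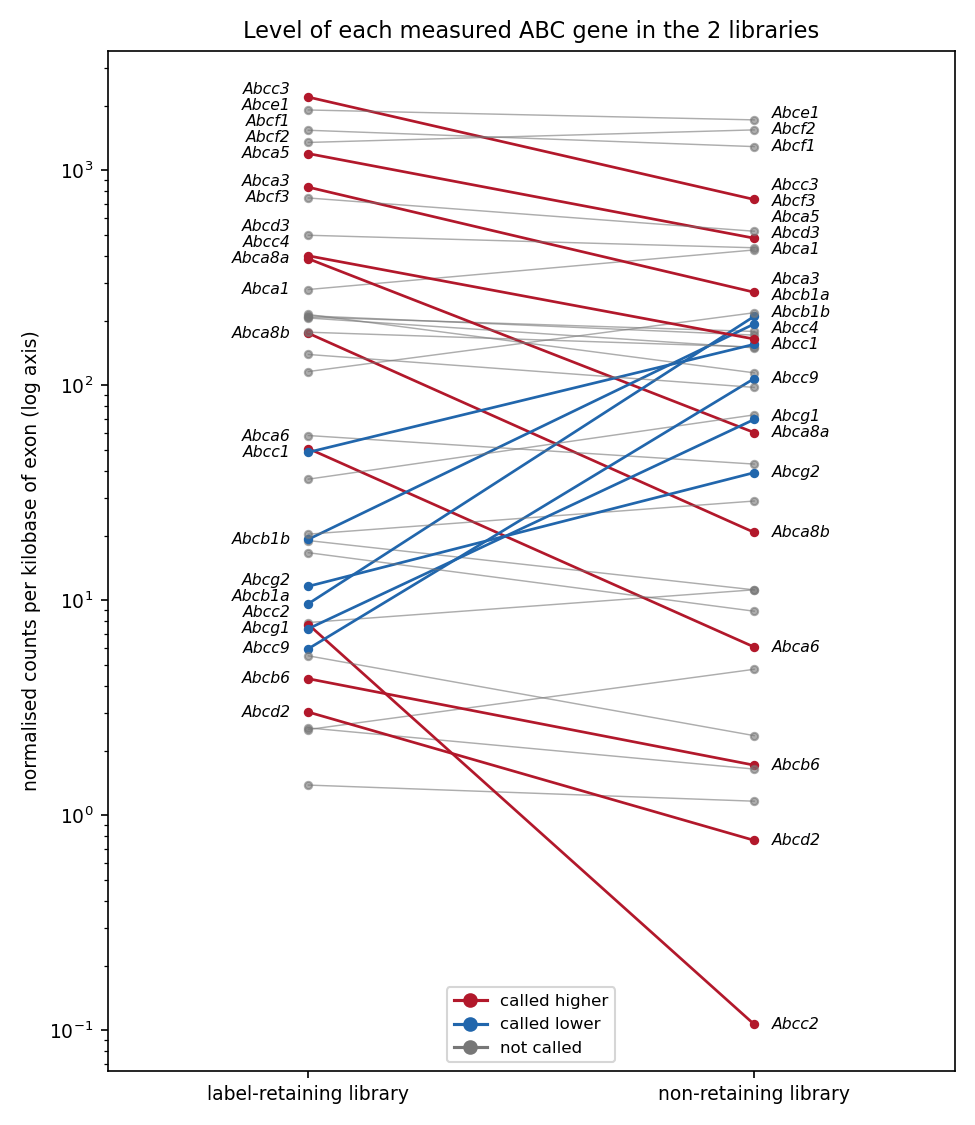
Level of the measured ABC genes in normalised counts per kilobase of exon (log axis) in the label-retaining (left) and the non-retaining library (right), 1 library each, with a line per gene coloured by its call and names of selected genes moved apart where they would overlap; Abcc8, at 0 in the label-retaining library, is not drawn. Abcc3 leads on the left at 2193 and Abce1 on the right at 1718, and the lines of Abca8a and Abcb1a cross.

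The channel regulators Abcc8 and Abcc9 encode the sulfonylurea receptors, which are subunits of ATP-sensitive potassium channels and not pumps. Abcc9 (SUR2), known in smooth muscle, pericytes and heart, had 49.9 normalised counts in label-retaining cells, against 901 in non-retaining cells, 18.05-fold lower (-4.16, -4.61 to -3.76). Its pore-forming partner Kcnj8 lies beside it on chromosome 6 and had 26.9 normalised counts in label-retaining and 584 in non-retaining cells (-4.41, -5.05 to -3.88). Abcc8 (SUR1), known in pancreatic islets and brain, had 0 reads in label-retaining cells, against 96 in non-retaining cells. It was at least 29.2-fold lower by a floor of 3 reads in place of the 0. The counting interval is wider than that floor allows and ended nearer to equality, at a log2 ratio of -4.54. Its partner Kcnj11 had 0 reads in label-retaining cells, against 5 in non-retaining cells and was not measured. All 7 smooth muscle and pericyte markers were lower too, with a median of -3.31. They summed to 1615 normalised counts in label-retaining cells, against 18895 in non-retaining cells, none was at 0, and Rgs5 and Pdgfrb, markers of pericytes, were at -4.09 and -3.82. The part of these cells in the Abcc9 and Kcnj8 differences was not tested.

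The intracellular transporters of mitochondria, lysosomes and peroxisomes were mostly not called. Of 6 measured members of the mitochondrial and intracellular group, 1 was higher and 0 lower. Abcb10, of the inner membrane and linked to haem synthesis, had 886 normalised counts in label-retaining and 644 in non-retaining cells (0.46, 0.32 to 0.60). Abcb8, also mitochondrial, was at 0.90 (0.75 to 1.05). Abcb9, a lysosomal peptide transporter, was at 0.44. The 1 called gene, Abcb6, linked to porphyrin transport, had 23 reads in label-retaining cells, against 10 in non-retaining cells (1.29, 0.21 to 2.57). Of its exon bases, 55.2% overlap another gene model on the same strand, so this count is uncertain. Abcb5, counted in this group although it is known as a drug efflux transporter of the cell surface, had 11 reads in label-retaining cells, against 23 in non-retaining cells, and was not called. Iron-sulfur and haem partner genes were likewise mostly not called, with 1 higher and 1 lower of 14, namely Cpox (1.18) and Alas1 (-1.14).

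Peroxisomal ABC genes, which import very-long-chain and branched fatty acyl-CoA, were mostly uncalled, and 6 of 13 genes for enzymes and other partners of the peroxisome were higher under the deposited scaling, against 1 under the keratin scaling. Abcd3 had 3292 normalised counts in label-retaining cells, against 2879 in non-retaining cells (0.19, 0.12 to 0.26). Abcd2 was called higher from 18 reads in label-retaining cells, against 5 in non-retaining cells (1.87, 0.50 to 3.77). Abcd4, a lysosomal cobalamin transporter, was at -0.51. No peroxisome partner was lower, and under the deposited scaling the 13 log2 ratios ran from 0.0047 to 1.96. Ehhadh (1.96) and Phyh (1.64), genes for enzymes of peroxisomal fatty acid oxidation, were among the higher ones. The list's median was 0.84, and 0.06 under the keratin scaling, where the median of all measured genes lay at -0.79.

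The E and F subfamilies have ATP-binding domains but no membrane domain and act on ribosomes. None of the 4 genes was called. Abce1, which splits ribosomes after termination, had 11469 normalised counts in label-retaining cells, against 10316 in non-retaining cells (0.15, 0.12 to 0.19). Abcf1, of translation initiation, was at 0.25, Abcf2 at -0.19 and Abcf3 at 0.51. Per kilobase, Abce1, Abcf2 and Abcf1 held the first 3 places among ABC genes in the non-retaining library, and ranks 2 to 4 behind Abcc3 in the label-retaining one. Of 11 ribosome recycling and translation partners, 0 were called in either direction, and the most abundant by count, the release factor gene Etf1, was at -0.39. The peptide pump genes of antigen presentation, Tap1 (-0.59) and Tap2 (0.17), were uncalled too. Among their 9 peptide loading partners B2m (1.14) and Pdia3 (1.19) were higher and Psmb8 (-1.28) was lower under the deposited scaling. Under the keratin scaling 0 of the 9 were higher and 3 lower, where 5.48% and 40.7% of all measured genes were.

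The receptors and factors known to control ABC genes were lower more often than higher under the deposited scaling, with 6 lower and 1 higher of 17 measured. These are 35.3% and 5.88%, against 19.4% and 14.5% of all measured genes. Under the keratin scaling 8 of the 17 were lower and 1 was higher, where 40.7% and 5.48% of all measured genes were. Nfe2l2, which encodes the oxidant-responsive factor NRF2, an inducer of Abcc genes, had 3981 normalised counts in label-retaining cells, against 18257 in non-retaining cells (-2.20). Hif1a, the hypoxia factor gene, had 6898 normalised counts in label-retaining cells, against 28287 in non-retaining cells (-2.04). Rxra, a partner of the sterol receptors, had 929 normalised counts in label-retaining and 3299 in non-retaining cells (-1.83). The sterol receptor genes themselves, Nr1h2 (0.45) and Nr1h3 (-0.08), were not called, and the higher gene was Rxrg, at 103 normalised counts in label-retaining cells, against 29.1 in non-retaining cells. Of 28 ABC genes with a promoter window near the annotated start, 0 held the exact form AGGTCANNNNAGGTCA of the sterol receptor element on either strand. Only 0.0154% of all windows hold this exact form, so a count of 0 in 28 tells little. Inexact forms of the element were not sought. The xenobiotic core GCGTG stood on either strand in 8 of the 28, against 28.3% of all windows. The windows of the higher genes Abca3, Abca5 and Abcc4 held it, as did those of the uncalled Abcb4, Abcd3, Abcf1, Abcf3 and Abcg8. The windows of the higher genes Abca8a, Abca8b, Abcb6 and Abcc2 did not. Nor did those of the lower genes Abcb1b, Abcc9 and Abcg2.

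**Figure D4:**
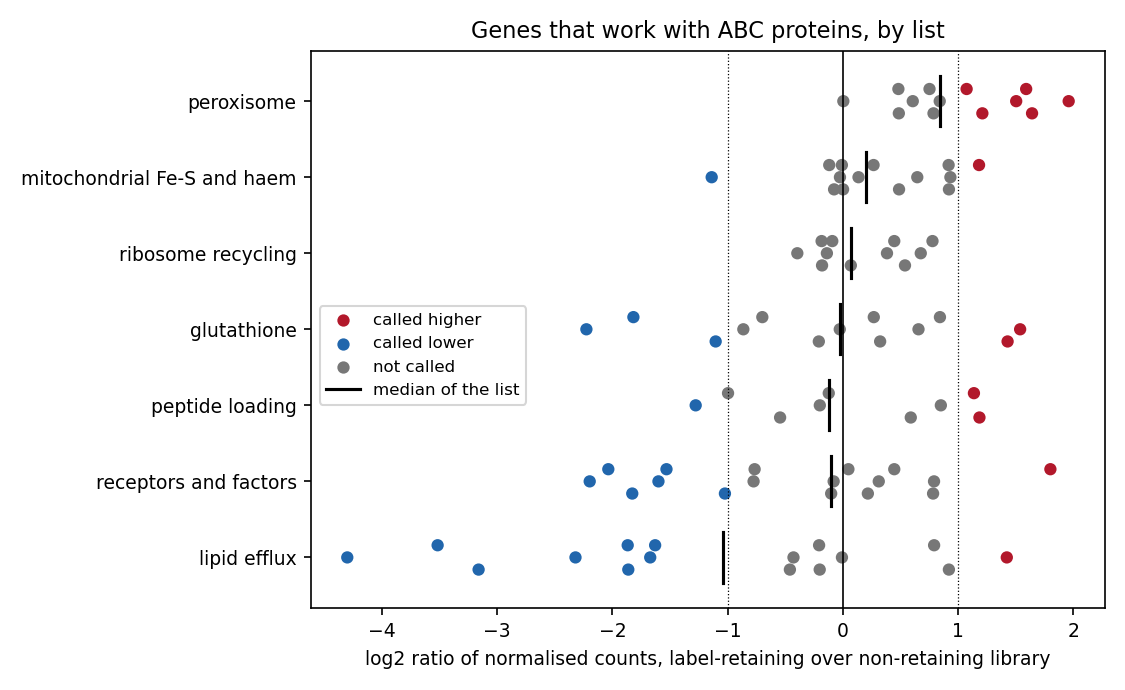
Log2 ratio (label-retaining over non-retaining library, 1 library each) of measured genes that work with ABC proteins, in 7 lists, with 1 point per gene coloured by its call, a black bar for each list's median and dotted lines at -1 and 1. Under the deposited scaling drawn here, peroxisome partners lie at or right of 0, with a median of 0.84, and lipid efflux partners lie mostly left of 0, with a median of -1.04.

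The higher calls depended on how the libraries were scaled. The 6 other scalings moved the log2 ratios by between -0.88 and 0.07, so they could end higher calls, whereas no lower call lay near enough to the threshold to be lost. Of the 10 higher members, Abca6, Abca8a, Abca8b and Abcc2 kept their call under all 6. On the keratins Krt8 and Krt18 every log2 ratio moved by -0.78 before the pseudocount, and the split became 4 members higher and 13 lower (10% and 32.5%), against 5.48% and 40.7% of all measured genes. Abca3, Abca5, Abcc3 and Abcc4 kept ratios above 0 there but under the size for a call. Abcd2 kept a ratio of 1.13 with an interval that held equality. Under that scaling the mitochondrial and intracellular ABC group, the iron-sulfur and haem partners and the ribosome partners each had 0 higher and 1 lower, and the fibroblast markers 0 higher and 2 lower. On library totals the split was 10 higher and 10 lower.

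**Figure D5:**
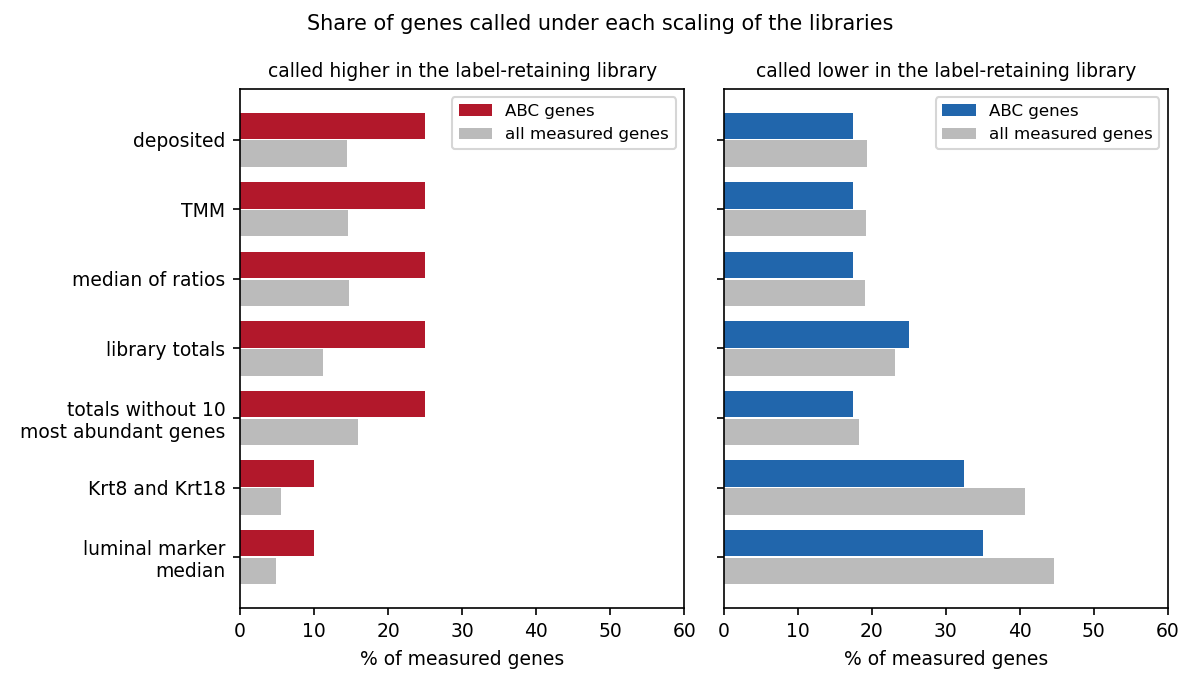
Share of measured genes called higher (left panel) and lower (right panel) in the label-retaining library under each scaling of the libraries, for the 40 measured ABC genes and, in grey, all 17183 measured genes. The share of ABC genes called higher is 25% under the deposited scaling and 10% under the keratin and luminal marker scalings, and in each it is above that of all genes.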

How the data were processed

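Per the labels' protocols, the libraries are stranded ones from total RNA. The authors deposited a normalised signal, gene read counts divided by 1 size factor per library. Dividing by the step of each column gave whole reads for 100% of values (within 0.001), with a largest deviation of 1.9e-09 reads in the label-retaining column, and with size factors of 1.00 (label-retaining) and 1.10 (non-retaining). Per the submitters' processing notes, the build was mm10 and the tools included TopHat2 2.0.10, HTSeq 0.6.0 and DESeq 1.16.0, with no role given. The sources used here do not give the annotation or how strand and shared reads were handled.

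Symbols, positions and exon lengths came from GENCODE M21 (GRCm38, also called mm10), which gave a symbol for 18634 rows. Log2 ratios used a pseudocount of 0.5 normalised counts, and exact Clopper-Pearson intervals came from the reads (scipy 1.17.1). A count model could not be fitted without residual degrees of freedom. At 100 normalised counts per library the interval extended 0.404 log2 units either way, and at 1000 it extended 0.125. Reads without molecular identifiers are not independent molecules. TMM factors came from edgeR 4.0.16, on the recovered reads. The interval calculation was run on simulated counts with counting error only, the model it assumes, which tells nothing about variation between libraries. Named were all called members, the 5 highest per kilobase in each library, a list of members with well-known roles, and up to 2 called genes and the most abundant gene per companion list, with others added for their role. Members and lists were chosen with earlier results of these data known. Protein sequences were not used here. Single values of a few genes are not reported here.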

Additional observations from a re-analysis of the deposited data

How the results depend on the processing

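Among 11 alternatives, TMM, median-of-ratios factors and totals without the 10 most abundant genes left the split at 10 members higher and 7 lower. On library totals the median log2 ratio of the members was 0.073, with 10 higher and 10 lower. On Krt8 and Krt18 it turned to -0.50, with 4 higher and 13 lower, and on the luminal marker median to -0.59, with 4 higher and 14 lower. The median of all measured genes moved with these scalings, to -0.21, -0.79 and -0.88. At 3-fold 6 members were higher and 7 lower. A pseudocount of 5 ended the call of Abcb6. Calls from under 50 normalised counts, such as Abcd2 and Abcb6, and the ratio of Abcc2 are limited by depth. No paired analysis was possible because each group had 1 library, and no replicate could be left out.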
